A study of Rattus norvegicus with 16 samples.

Results

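The induced membrane, the sheath of tissue that forms around a bone cement spacer, was compared with the bone lying against that spacer. The comparison used 8 of the 16 RNA-seq libraries of the series, 4 of membrane and 4 of bone, with 1 of each from each of 4 Sprague-Dawley rats. Libraries were chosen by the tissue and the rat that their labels name. Every rat had a plated osteotomy on each side, one holding a spacer of polymethyl methacrylate (PMMA) and one left empty, and tissue was taken at 4 weeks of healing. Membrane and bone of a rat came from its spacer side, so surgery, plate, spacer and time were shared by the groups compared. The tissue of the empty defect, called pre-fibrous non-union in the labels, and the bone next to the empty defect gave the remaining 4 and 4 libraries, which were used to estimate the spread and as a second comparison of soft tissue with bone. No library of unoperated bone was used here, and for the rats no age or sex is given in the sources used here.

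Placing a spacer and leaving it until a membrane has formed is the first stage of the Masquelet technique, in which bone graft is later packed into the membrane. Bone is made by osteoblasts, which become the osteocytes buried in it, and is resorbed by osteoclasts, and its cavities hold marrow in which red cells, granulocytes and B cells develop. The membrane is known as a fibrous, vascular tissue with fibroblasts, myofibroblasts, macrophages and a cell layer facing the cement that resembles synovium. The question put to the data was which genes distinguish this sheath from the bone beside it.

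Total counts of the 8 libraries ran from 40472228 to 76815879. Values below are counts scaled to library size and composition (CPM), and a log2 difference is membrane minus bone ± its standard error, with 4 libraries in each group. Genes with an adjusted p below 0.05, over the 12857 tested, are referred to as called. Of these, 2860 (22.2%) were called, 1447 higher in the membrane (11.3%) and 1413 lower (11%), and the median log2 difference of all genes tested was 0.03. The 4 membranes lay above the 4 bone libraries without overlap in 7.75% of genes and below them in 11.7%. A bulk sample mixes cells, so fewer cells of a type and less RNA per cell cannot be told apart for any gene below.

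Some libraries stood apart from their group. The skeletal muscle list took 2.57, 4.64, 18.2 and 23.5% of a membrane's counts in rats 1 to 4, against 0.225 to 1.40% in bone, so the membranes of rats 3 and 4 were rich in muscle RNA. In the bone of rat 1 the erythroid list took 8.31% of counts, against 0.465 to 1.41% in the other bone libraries and 0.0384 to 0.159% in membranes. The membrane of rat 3 held more RNA of bone cell genes than the other membranes: the osteocyte list took 0.161% of its counts, against 0.0267 to 0.0607% in the others and 0.266 to 0.358% in bone. Leaving out both muscle-rich membranes left 1760 called genes, and leaving out the bone of rat 1 as well left 1451. These refits were chosen after the data were seen.

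**Figure D1:**
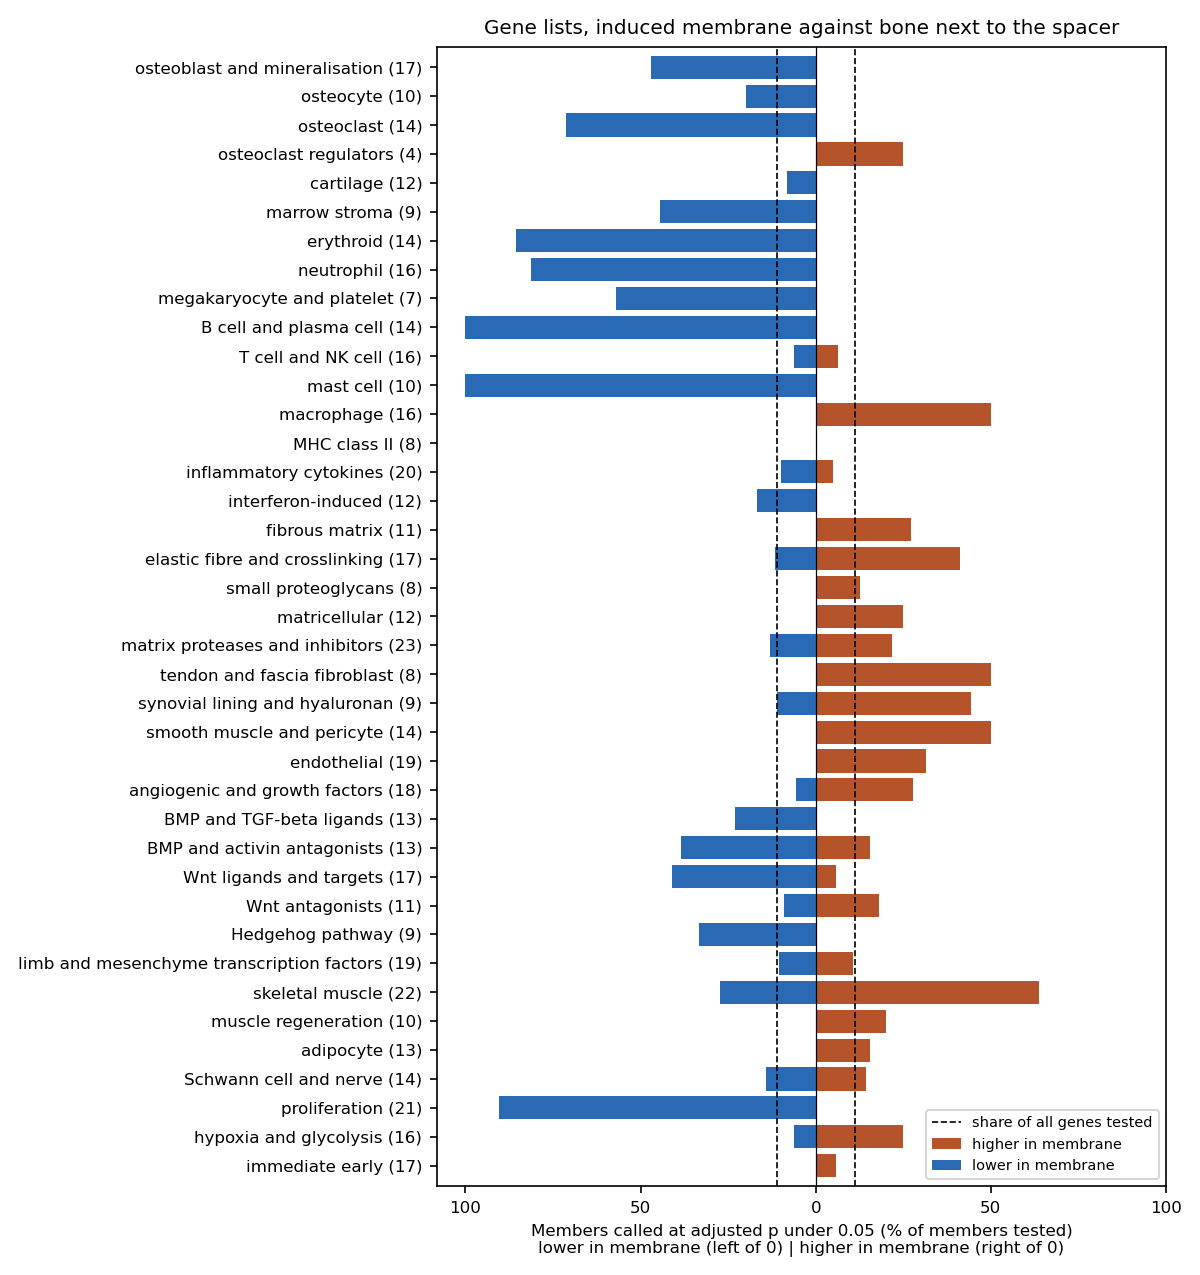
Share of the tested members of each gene list that was called higher (right, brown) or lower (left, blue) in the induced membrane than in the bone next to the spacer, in percent, with the number tested in brackets and dashed lines at the shares over all genes tested (11.3% higher, 11% lower). All 14 B cell and all 10 mast cell genes tested lie on the lower side, and 14 of 22 skeletal muscle genes on the higher side.

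Genes of bone-forming cells were lower in the membrane. Of 17 osteoblast and mineralisation genes tested, 8 were called lower and none higher, with a median log2 difference of -2.04 beside 0.03 for all genes. The count was 5 without the membrane of rat 2 or the bone of rat 4 and 4 without the membrane of rat 4. Bglap encodes osteocalcin, a protein of mineralising osteoblasts, and measured 10.1, 218, 864 and 99.7 CPM in the membranes of rats 1 to 4 and 2035, 2504, 2477 and 2635 CPM in their bone. Every bone library was above every membrane, and the membrane of rat 3 came nearest to bone. Its log2 difference was -3.02 ± 0.89 (adjusted p = 0.0266), and the adjusted p was 0.0578 without the membrane of rat 2, 0.0704 without that of rat 4 and 0.051 without the bone of rat 4. Without the membrane of rat 3 the difference was -4.46 ± 0.88. The 250 bases before the Bglap start hold 1 match to ACCACA, the core letters bound by RUNX factors such as Runx2, the master regulator of osteoblasts. The stretch is chr2:176137319-176137568 on the minus strand of GRCr8 in RefSeq's table, with the match in capitals.

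Bglap: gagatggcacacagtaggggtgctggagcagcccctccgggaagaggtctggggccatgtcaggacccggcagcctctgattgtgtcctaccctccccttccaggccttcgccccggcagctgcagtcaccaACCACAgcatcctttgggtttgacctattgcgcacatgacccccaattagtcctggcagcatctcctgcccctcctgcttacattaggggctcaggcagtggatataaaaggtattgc

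ACCACA or its reverse complement TGTGGT was present in the 250 bases upstream of 3 of the 11 osteoblast genes with an entry (27.3%), and of 15.2% of all 27457 genes in the table. The matches were in Bglap, Runx2 and Sparc, while Alpl and Pth1r had none, and they were not tested as sites. Runx2 stood at 63.3, 20.9, 101 and 15.8 CPM in the membranes and 208, 181, 237 and 204 CPM in bone, with no overlap. The log2 difference was -2.04 ± 0.51 (adjusted p = 0.0122). Alpl, the alkaline phosphatase that frees phosphate for mineral, measured 30.9, 30.1, 217 and 56.3 CPM in the membranes against 423, 692, 1030.3 and 889 CPM in bone. All membranes were below all bone libraries, again with that of rat 3 highest, and the difference was -3.18 ± 0.64 (adjusted p = 0.00417). Leaving out that membrane gave -4.28 ± 0.54 for Alpl and -2.64 ± 0.50 for Runx2. Pth1r, the parathyroid hormone receptor, differed by -2.74 ± 0.48 and Dlx5, an osteoblast transcription factor, by -3.10 ± 0.62 (adjusted p = 0.00199 and 0.00413). Sp7, or osterix, was at 0.806, 1.72, 33.8 and 3 CPM against 38.4, 51.8, 79.3 and 73.5 CPM. Its groups did not overlap, but its difference of -2.63 ± 0.93 missed the threshold (adjusted p = 0.0534), while it was -3.83 ± 0.67 with the rat as a block (adjusted p = 0.00302) and -5.04 ± 0.71 without the membrane of rat 3 (adjusted p = 0.000668).

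Calls of osteocyte genes changed with the membrane of rat 3. Only Irx5 and Ptprz1 of the 10 tested were called, both lower in the membrane, while 9 of the 10 differences were negative and the median was -2.12. With the rat as a block 7 were called lower, without the membrane of rat 3 the count was 6, without that of rat 1 it was 4, and without that of rat 4 it was 1. Dmp1, a matrix protein of osteocytes, stood at 13.5, 155, 1059 and 78.1 CPM in the membranes and 1647, 1219, 1417 and 1361 CPM in bone. The membrane of rat 3 lay just below the bone range and the other membranes far below it. Its log2 difference was -2.11 ± 0.92 (adjusted p = 0.107), and the blocked value was -3.19 ± 0.89 (adjusted p = 0.0252), with -4.10 ± 0.81 when the membrane of rat 3 was left out. Sost, which encodes the Wnt inhibitor sclerostin of mature osteocytes, measured 0.134, 0.452, 9.71 and 0.434 CPM in the membranes and 32.6, 12.7, 13.6 and 22.1 CPM in bone. Again the groups did not overlap and rat 3 was the highest membrane. The difference of -2.92 ± 1.09 was not called (adjusted p = 0.0652), whereas the blocked value of -4.57 ± 1.00 was (adjusted p = 0.0088), as was -5.88 ± 0.95 without the membrane of rat 3 (adjusted p = 0.00148).

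Osteoclast genes were lower in the membrane as well. Of 14 tested, 10 were called lower and none higher (median -2.03), a count that was 6 without the membrane of rat 2, the membrane of rat 4 or the bone of rat 3. Acp5, the tartrate-resistant acid phosphatase that stains osteoclasts, was at 113, 225, 1009 and 168 CPM in the membranes and 1788, 2637, 3701 and 2318 CPM in bone. No membrane reached the bone range, and that of rat 3 stood above the rest. The difference was -2.78 ± 0.61 (adjusted p = 0.00665). Mmp9, a gelatinase of osteoclasts and granulocytes, showed 118, 54.1, 513 and 69.3 CPM against 1143, 1889, 3179.6 and 1323 CPM and a difference of -3.32 ± 0.68 (adjusted p = 0.00454). Rat 3 was once more the highest membrane and the groups were separate. Without it the differences were -3.95 ± 0.47 for Acp5 and -4.55 ± 0.56 for Mmp9. Car2, the carbonic anhydrase that supplies osteoclasts with acid and is also made by red cell precursors, differed by -4.67 ± 0.71, and Oscar, an osteoclast receptor, by -3.05 ± 0.52 (adjusted p = 0.000893 and 0.00184).

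The signals that steer osteoclasts did not follow one direction. Il34, a second ligand of the macrophage colony-stimulating factor receptor, was at 34.4, 57, 33.9 and 48.4 CPM in the membranes and 9.08, 27.4, 15.6 and 18.6 CPM in bone. All membranes lay above all bone libraries, with a difference of 1.30 ± 0.29 (adjusted p = 0.00766). Tnfsf11, which encodes the osteoclast-inducing ligand RANKL, measured 9.14, 2.44, 2.77 and 0.908 CPM against 8.71, 6.99, 12.8 and 10.05 CPM. The membrane of rat 1 fell inside the bone range and the other membranes below it, and the difference of -1.34 ± 0.51 was not called (adjusted p = 0.0703), but was -2.22 ± 0.41 without that membrane (adjusted p = 0.0022). Its decoy receptor Tnfrsf11b (osteoprotegerin) was at 62.5, 73.4, 38.5 and 19.2 CPM against 25, 17.2, 17.7 and 21.1 CPM. The membrane of rat 4 lay within the bone range and the others above it, and the difference of 1.26 ± 0.46 missed the threshold (adjusted p = 0.0597), with 1.55 ± 0.42 without that membrane (adjusted p = 0.0276). All 12 cartilage genes tested had negative differences (median -1.76), but only Col11a2 was called. Its call was lost without the membrane of rat 2 or 4 or the bone of rat 3 or 4 (adjusted p = 0.0623 to 0.0718). The count called lower was 3 with the rat as a block or with DESeq2, and 2 without the membrane of rat 1. With the block in only the 8 membrane and bone libraries it was 7, and in those 8 without the block it was 0. Col2a1, the collagen of cartilage, varied from 20.2 to 1703 CPM in membranes and from 809 to 11186 CPM in bone. It was not called (adjusted p = 0.273), except with the block in those 8 libraries (-3.95 ± 0.84, adjusted p = 0.0354).

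**Figure D2:**
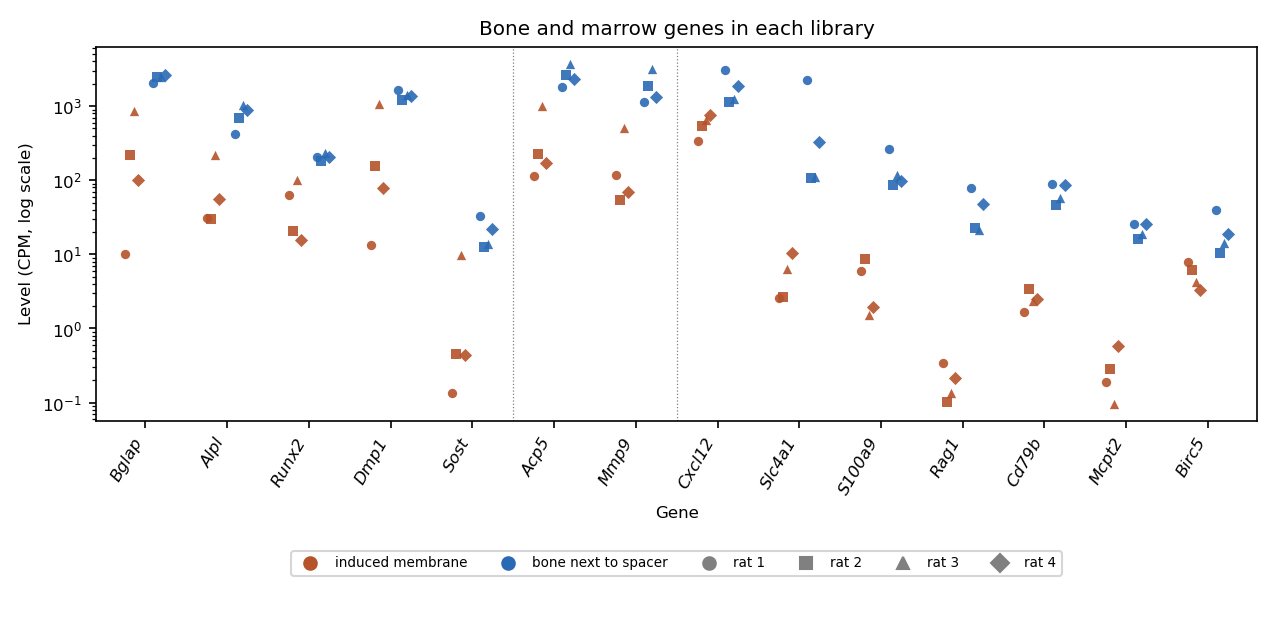
Level of 14 genes of bone-forming cells, osteoclasts, marrow and dividing cells in CPM on a log axis, 1 symbol per library, brown for the 4 membranes and blue for the 4 bone libraries, with 1 shape per rat. In every gene shown the bone libraries lie above the membranes, and for Bglap to Mmp9 the highest membrane is that of rat 3 (triangle). CPM are not corrected for gene length, so heights are to be compared within a gene.

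Marrow genes were lower in the membrane. The B cell list was called lower in all 14 members tested (median -4.91), the neutrophil list in 13 of 16 (median -5.14), the erythroid list in 12 of 14 (median -4.94) and the megakaryocyte list in 4 of 7 (median -4.01), and none of these lists had a member called higher. With limma-voom the erythroid count was 7 lower and 1 higher. Among the largest decreases, Slc4a1, Rhag, Kel, Ahsp, Hemgn and Ca1 are genes of red cells and their precursors, Rag1, Rag2 and Igll1 of B cell precursors, Epx of eosinophils and Myh7 of slow muscle. Rag1, an enzyme that cuts antigen receptor genes in lymphocyte precursors, measured 0.345, 0.1, 0.135 and 0.217 CPM in the membranes and 77.4, 22.5, 21.5 and 47.8 CPM in bone. The lowest bone library was far above the highest membrane, and the difference was -7.72 ± 0.79 (adjusted p = 4.88e-05). Cd79b, part of the B cell receptor, stood at 1.69, 3.41, 2.35 and 2.53 CPM against 88.2, 46.7, 57.2 and 86.5 CPM. Membranes were within a narrow low range, and the difference was -4.80 ± 0.44 (adjusted p = 2.38e-05). Slc4a1, the anion exchanger of the red cell membrane, was at 2.59, 2.66, 6.36 and 10.5 CPM in the membranes and 2254, 107, 112 and 328 CPM in bone. The bone of rat 1 exceeded the other bone libraries, and all bone exceeded all membranes (-6.98 ± 1.10, adjusted p = 0.00105). Without that library the difference was -5.04 ± 0.72.

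Granulocyte and stromal genes of marrow followed. S100a9, a calcium-binding protein of neutrophils, measured 5.87, 8.7, 1.54 and 1.95 CPM in the membranes against 265, 86.6, 118 and 98.3 CPM in bone, a difference of -4.97 ± 0.63 (adjusted p = 0.000277). Again the bone of rat 1 was highest and no value overlapped. Epx, the eosinophil peroxidase, reached at most 0.184 CPM in a membrane and was at 24.9, 3.26, 5.59 and 9.48 CPM in bone (adjusted p = 0.00132). Cxcl12, the chemokine by which marrow stroma retains blood-forming cells, stood at 342, 535, 656 and 762 CPM in the membranes and 3065, 1144, 1264 and 1846 CPM in bone. The groups were separate, though the gap between the highest membrane and the lowest bone library was small, and the difference was -1.67 ± 0.34 (adjusted p = 0.00454). Lepr, a marker of that stroma, differed by -3.11 ± 0.51 and its transcription factor Foxc1 by -2.23 ± 0.38 (adjusted p = 0.0015 and 0.00184), and the stromal list had 4 of 9 members called lower.

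Mast cell genes were lower in the membrane without exception: 10 of 10 were called, with a median of -3.47. Mcpt2, a mast cell protease with closely related family members among which reads may have been split, measured 0.192, 0.284, 0.0963 and 0.573 CPM in the membranes and 25.4, 16.2, 18.8 and 26.1 CPM in bone. Bone libraries lay close together, all far above the membranes, and the difference was -6.23 ± 0.57 (adjusted p = 2.38e-05). Hdc, the enzyme that makes histamine, differed by -3.40 ± 0.37 and the tryptase Tpsab1 by -3.47 ± 0.43 (adjusted p = 7.40e-05 and 0.000235). Without the bone of rat 1, and without both muscle-rich membranes, all 10 and all 14 members of the mast cell and B cell lists remained called.

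T cell genes did not share this pattern. Of 16 tested, Cd28 was called higher and Cd3g lower, and the median log2 difference was 0.01. Cd28, a costimulatory receptor, was at 2.03, 6.68, 8.53 and 20.3 CPM in the membranes and 1.87, 2.9, 1.34 and 1.57 CPM in bone, and its call was lost without the muscle-rich membranes of rats 3 and 4 (adjusted p = 0.117). Without the membrane of rat 4 alone, 2 genes of the list were called higher. The Cd3g call was lost with the rat as a block (adjusted p = 0.0617) and without the membrane of rat 1 or 4 or the bone of rat 1, 3 or 4 (adjusted p = 0.0531 to 0.111).

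Genes of dividing cells were lower in the membrane. Of 21 proliferation genes tested, 19 were called lower and the median was -1.54, but 3 were called without both muscle-rich membranes and 1 when the bone of rat 1 was left out too. The list took 0.0721, 0.0556, 0.0303 and 0.0220% of counts in the membranes and 0.405, 0.0826, 0.0969 and 0.139% in bone, highest in the bone of rat 1, in which the erythroid share was also highest. The part of marrow and muscle content in the proliferation result was not tested. Birc5, the mitotic protein survivin, stood at 8, 6.23, 4.26 and 3.34 CPM in the membranes and 40.1, 10.6, 14.3 and 18.9 CPM in bone, a difference of -1.94 ± 0.38 (adjusted p = 0.00389; 0.0607 when all of these libraries were left out). The groups were separate, with the membrane of rat 1 and the bone of rat 2 nearest. The 250 bases before its start (chr10:103571896-103572145, plus strand, GRCr8, RefSeq) are shown because they hold a CCAAT box and a TTTGAA element, letters found upstream of many cell cycle genes, both in capitals.

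Birc5: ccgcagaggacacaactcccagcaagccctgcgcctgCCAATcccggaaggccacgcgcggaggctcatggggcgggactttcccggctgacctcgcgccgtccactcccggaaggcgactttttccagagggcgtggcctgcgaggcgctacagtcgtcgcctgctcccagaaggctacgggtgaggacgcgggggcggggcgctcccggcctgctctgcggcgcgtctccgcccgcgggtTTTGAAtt

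CCAAT or its reverse complement ATTGG stood upstream of 13 of 17 proliferation genes with an entry (76.5%) against 36.1% of all genes in the table, and TTTGAA or TTCAAA upstream of 7 of 17 (41.2%) against 17.2%. These are matches of letters in a window and were not tested as sites.

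On the membrane side, genes of elastic fibres were prominent. Of 17 genes for elastic fibres and crosslinking, 7 were called higher (Mfap2, Fbln1, Loxl1, Ltbp4, Fbn1, Eln and Mfap5) and the crosslinking enzymes Loxl3 and Loxl4 lower, with a median of 0.62. The count of genes called lower was 4 without the membrane of rat 1, and the Loxl3 call was lost without the membrane of rat 2 or 4 or the bone of rat 3 or 4 (adjusted p = 0.0614 to 0.0737). Fbn1, or fibrillin-1, the backbone of microfibrils, measured 1091, 1508, 1205 and 1083 CPM in the membranes and 316, 411, 359 and 346 CPM in bone. Both groups were tight and far apart, and the difference was 1.77 ± 0.23 (adjusted p = 0.000303). Mfap5, a microfibril-associated glycoprotein, was at 188, 576, 219.6 and 185 CPM against 30.8, 84.5, 44.3 and 49.9 CPM. Rat 2 had the highest membrane and no value overlapped (2.48 ± 0.40, adjusted p = 0.00131). Efemp1, another fibulin, was chosen after its values were seen. It stood at 24.9, 232, 137 and 143 CPM in the membranes and 2.57, 9.03, 6.25 and 7.05 CPM in bone, lowest among membranes in rat 1 yet above every bone library (4.43 ± 0.66, adjusted p = 0.000758).

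Fibrous matrix genes were in part higher in the membrane. Only Fn1, Col5a3 and Col14a1 of 11 fibrous matrix genes were called, all higher in the membrane, and the median was 0.04. Col14a1, a collagen that coats fibrils in tendon and skin, stood at 709, 862, 748 and 641 CPM in the membranes and 90.2, 326, 91.5 and 133 CPM in bone. All membranes were above all bone libraries, by 2.21 ± 0.48 (adjusted p = 0.00594), and by 2.82 ± 0.45 without the bone of rat 2, the highest bone library. The Fn1 call was lost with the rat as a block (1.40 ± 0.56, adjusted p = 0.092) and without the membrane of rat 1 or 2 or the bone of rat 1, 3 or 4 (adjusted p = 0.052 to 0.133). Col1a1, the main collagen of bone and scar, was at 39679.8, 14323, 46919 and 7363 CPM in the membranes and 50572, 72098, 79289 and 77472 CPM in bone. Each membrane was below each bone library, but the difference of -1.37 ± 0.56 was not called (adjusted p = 0.0903), and it was -1.77 ± 0.59 without the membrane of rat 3 (adjusted p = 0.0471). Col3a1, the collagen of young connective tissue, and the matricellular genes Postn and Tnc overlapped between groups and were not called (adjusted p = 0.119, 0.383 and 0.129), although Tnc differed by -1.52 ± 0.47 without the membrane of rat 1 (adjusted p = 0.0243).

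Genes of fascia and of synovial lining were higher in the membrane. All 8 tested genes of the tendon and fascia list had positive differences, and Pi16, Cilp, Igfbp6 and Dpt were called. Dpt, or dermatopontin, a matrix protein of dermis and fascia, measured 347, 1123, 493 and 673 CPM in the membranes and 55.7, 177, 77 and 84.1 CPM in bone. The groups were separate, and the difference was 2.74 ± 0.49 (adjusted p = 0.00226). Of 9 synovial lining and hyaluronan genes, Prg4, Clic5, Tnfaip6 and Has1 were called higher and Hapln3 lower. Prg4, the joint lubricant lubricin, was at 256, 72.5, 97.9 and 107 CPM in the membranes and 22.3, 58.6, 22.7 and 36.2 CPM in bone. Rat 1 had the highest membrane and the bone of rat 2 came near to the lowest membrane (1.93 ± 0.51, adjusted p = 0.0154). Has1, a hyaluronan synthase, was at 14, 7.23, 5.05 and 1.7 CPM against 0.28, 0.985, 0.708 and 0.609 CPM (3.43 ± 0.73, adjusted p = 0.00563). Msln, or mesothelin, a surface protein of serosal lining cells chosen after its values were seen, was at 140.4, 101, 78.7 and 12.1 CPM in the membranes and 1.75, 8.83, 3.4 and 5.08 CPM in bone. The groups did not overlap, and the membrane of rat 4 was the lowest of its group (4.12 ± 0.75, adjusted p = 0.00257).

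Contractile and vessel genes were in part higher in the membrane. Of 14 smooth muscle and pericyte genes, 7 were called higher and none lower (median 1.14), and 4 without the membrane of rat 4, while 1 was called lower without the membrane or the bone of rat 1. With limma-voom 3 were called higher and 1 lower. Acta2, the smooth muscle actin of vessels and myofibroblasts, measured 654, 679, 368 and 699 CPM in the membranes and 70.7, 237, 215 and 248 CPM in bone. Every membrane was above every bone library, with rat 3 the lowest membrane and rat 1 the lowest bone (1.64 ± 0.36, adjusted p = 0.00665). Of 19 endothelial genes, Erg, Tek, Pecam1, Cdh5, Cldn5 and Lyve1 were called higher and none lower (median 0.48), and 3 without the bone of rat 1. The endothelial count was 2 with limma-voom. Cdh5, the cadherin of endothelial junctions, stood at 162, 294, 202 and 257 CPM against 65.2, 113, 105 and 108 CPM. The bone of rat 1, the library with the highest erythroid share, was the lowest, and all membranes were above all bone (1.23 ± 0.23, adjusted p = 0.00277). Lyve1, a hyaluronan receptor of lymphatic endothelium and some tissue macrophages, was at 50.1, 141, 92.8 and 83.8 CPM in the membranes and 21.7, 27.8, 21.3 and 17.2 CPM in bone. Bone lay in a narrow range below all membranes (2.06 ± 0.30, adjusted p = 0.000634).

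Growth factors that act on vessels and mesenchyme were in part higher. Angpt2, Hgf, Igf1, Figf and Fgf10 of 18 genes tested were called higher and Pgf lower, with 3 called higher when the membrane of rat 2 or the bone of rat 3 or 4 was left out, and 2 called lower without the bone of rat 1. Figf, which encodes the lymphangiogenic factor VEGF-D, measured 9.88, 28.3, 17.6 and 11 CPM in the membranes and 2.29, 3.7, 2.03 and 1.34 CPM in bone. The groups were well apart (2.83 ± 0.46, adjusted p = 0.00133). Igf1, a growth factor of muscle and bone, was at 157, 341, 142 and 104 CPM against 58.8, 76.9, 57.2 and 48.3 CPM, highest in the membrane of rat 2 (1.62 ± 0.34, adjusted p = 0.00485). Vegfa, the main vascular growth factor, was at 114, 35.6, 277 and 138 CPM in the membranes and 147, 241, 242 and 211 CPM in bone. Its groups overlapped and the difference of -0.57 ± 0.44 was not called (adjusted p = 0.368), while it was -1.47 ± 0.46 without the muscle-rich membranes (adjusted p = 0.0477).

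**Figure D3:**
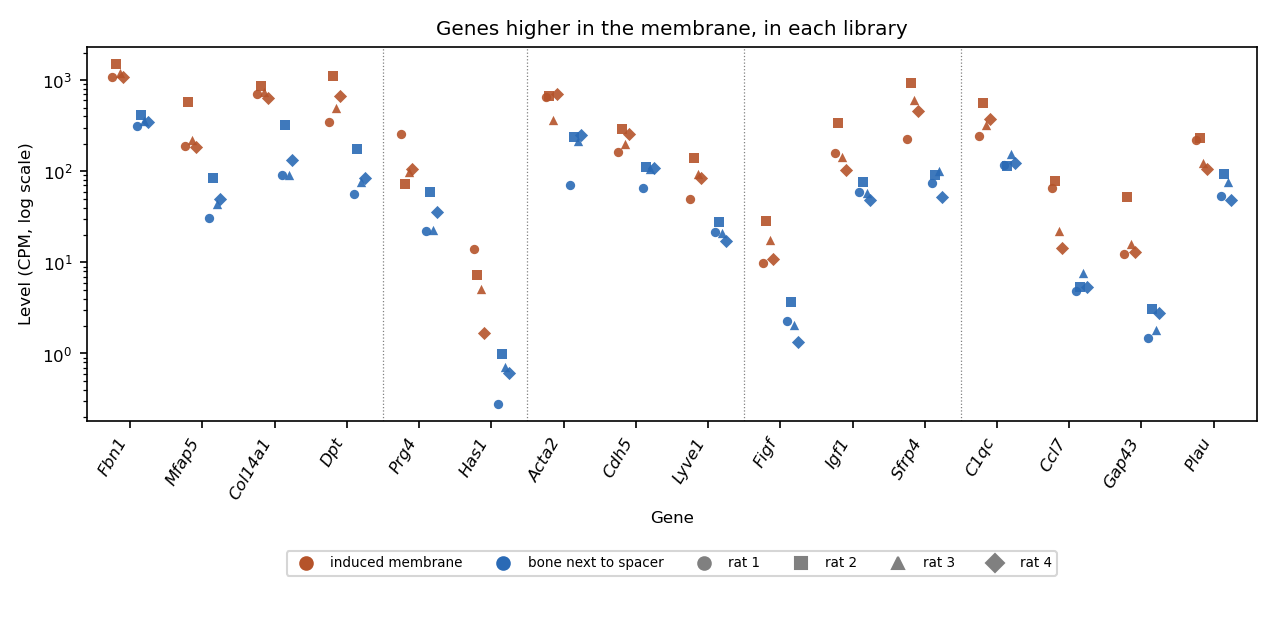
Level of 16 genes called higher in the membrane, in CPM on a log axis, 1 symbol per library, brown for membranes and blue for bone, with 1 shape per rat and dotted lines between gene groups (elastic fibre and fascia, lining, contractile and vessel, growth factors and Wnt, macrophage, nerve and protease). For every gene shown the 4 membranes lie above the 4 bone libraries. CPM are not corrected for gene length.

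Some bone morphogenetic protein (BMP) and Wnt genes were called lower in the membrane and a few higher. BMPs are secreted ligands that induce bone, and their signal raises inhibitors such as Nog, Smad6 and Smad7. Of 13 BMP and TGF-beta ligands, Bmp2, Bmp6 and Bmp7 were called lower and none higher. The count was 5 with the rat as a block or without the membrane of rat 1, 2 without the membrane of rat 2 or the bone of rat 1, 3 or 4, and 2 with limma-voom. The Bmp7 call was lost in each of these last fits and without the membrane of rat 4 (adjusted p = 0.0579 to 0.0895). Bmp2 stood at 2.25, 1.09, 5.87 and 2.67 CPM in the membranes and 15.4, 11.9, 13.2 and 16.4 CPM in bone. The groups were separate, and the membrane of rat 3 was the highest of its group (-2.26 ± 0.39, adjusted p = 0.00189). Tgfb1 overlapped between groups and was not called (-0.38 ± 0.27, adjusted p = 0.336), with -0.72 ± 0.23 without the membrane of rat 1 (adjusted p = 0.0298). Of the antagonists, Nog, Bambi, Smad6, Smad7 and Grem1 were called lower, and Fstl1 was called higher, a call lost without the bone of rat 1. Nog, the secreted BMP trap noggin, was at 0.154, 0.151, 0.481 and 0.691 CPM in the membranes and 2.22, 2.02, 2.77 and 4.02 CPM in bone (-2.90 ± 0.51, adjusted p = 0.00219). Smad6, an intracellular BMP inhibitor, was at 4.2, 4.12, 6.64 and 5.23 CPM against 13.2, 14.1, 21.7 and 22.3 CPM, with narrow ranges and no overlap (-1.82 ± 0.28, adjusted p = 0.000987).

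Among 17 Wnt ligands, enhancers and targets, 7 were called lower (Wnt1, Wnt5b, Wnt10b, Wnt16, Rspo3, Lef1 and Nkd2) and only Rspo1 higher, a call lost with the rat as a block (adjusted p = 0.108) and without the membrane of rat 1 or 2 or any 1 bone library. Wnt5b, a non-canonical Wnt ligand, measured 9.17, 8.07, 14.8 and 5.47 CPM in the membranes and 26.8, 47.6, 60.3 and 55.9 CPM in bone. The groups were separate (-2.34 ± 0.40, adjusted p = 0.00184). Lef1, a transcription factor of the Wnt pathway that early B cells also make, was at 0.844, 0.519, 1.96 and 0.237 CPM against 10.2, 6.6, 5.44 and 11.5 CPM (-3.24 ± 0.51, adjusted p = 0.00106). Of 11 Wnt antagonists, Sfrp4 and Sfrp2 were called higher and Wif1 lower, beside 11.3% and 11% of all genes. With the rat as a block 2 were called lower. Wif1, which osteoblasts make, stood at 1.96, 3.38, 22.6 and 12.8 CPM in the membranes and 100.0, 98.2, 116 and 161 CPM in bone, a difference of -3.54 ± 0.65 (adjusted p = 0.00268). Without the membrane of rat 3, the highest of its group for both, the differences of Wif1 and Lef1 were -4.30 ± 0.66 and -3.98 ± 0.47. Sfrp4, a frizzled-related Wnt trap of fibroblasts, stood at 228, 934, 603 and 462 CPM in the membranes and 74.7, 91.3, 101 and 52.1 CPM in bone, higher in every membrane by 2.80 ± 0.43 (adjusted p = 0.00091). Sfrp2 was called higher too (1.26 ± 0.40, adjusted p = 0.0346), a call lost without the membrane of rat 2 or 3 or the bone of rat 1, 3 or 4 (adjusted p = 0.0523 to 0.0913). In the Hedgehog pathway Ihh, Gli1 and Gli2 were called lower of 9 tested, but the count was 1 without the membrane of rat 2 or the bone of rat 3 and 0 without the bone of rat 4, in which Ihh was highest (1.84, 5.77, 9.85 and 24.1 CPM in the bone of rats 1 to 4).

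Part of the macrophage genes were higher in the membrane. Of 16 tested, 8 were called higher (C1qa, C1qb, C1qc, Cd14, Lgals3, Siglec1, Trem2 and Msr1) and none lower, with a median of 1.30. The count was 5 without the membrane of rat 2 or the bone of rat 4 and 4 without the bone of rat 3, and 5 with limma-voom. C1qc, a chain of the complement component that binds immune complexes and dying cells, measured 245, 566, 319 and 375 CPM in the membranes and 118, 114, 154 and 123 CPM in bone. The groups were separate and bone was uniform (1.57 ± 0.30, adjusted p = 0.00343). Cd68, a lysosomal protein of macrophages and osteoclasts, was at 377, 343, 314 and 112 CPM in the membranes and 339, 372, 518 and 276 CPM in bone, with overlap and no call (-0.39 ± 0.39, adjusted p = 0.482). Csf1r, the receptor for macrophage colony-stimulating factor, was not called either (adjusted p = 0.495). No MHC class II gene of 8 was called (median 0.75).

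Cytokine genes did not move as a group. Of 20 tested, Ccl7 was called higher and Il1b and Lif lower, and the median was -1.0. Ccl7, a chemokine that draws monocytes, stood at 65.8, 78.6, 21.9 and 14.4 CPM in the membranes and 4.86, 5.33, 7.68 and 5.35 CPM in bone. It was higher in the membranes of rats 1 and 2 than in those of rats 3 and 4, and bone lay below all of them (2.96 ± 0.65, adjusted p = 0.00654). Il1b, the inflammatory cytokine interleukin-1 beta, was at 5.22, 12.9, 18.8 and 4.15 CPM against 25.5, 36.2, 86.1 and 11.3 CPM (-1.96 ± 0.56, adjusted p = 0.0234). Its groups overlapped, and the call was lost without the membrane of rat 4 (adjusted p = 0.0645) or the bone of rat 3 (adjusted p = 0.103). Il6 was at 1.75, 1.51, 0.828 and 0.158 CPM in the membranes and 0.631, 3.24, 7.04 and 0.778 CPM in bone and was not called (adjusted p = 0.219). The list count of genes called lower was 0 without the membrane of rat 4 or the bone of rat 3, 1 without the membrane of rat 2, and 4 without the membrane of rat 1 or 3 or the bone of rat 4, and 2 were called higher without the membrane of rat 3 or 4.

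Genes of matrix-degrading enzymes and their inhibitors were called in both directions. Of 23 tested, Timp3, Timp4, Adamts5, Adamts12 and Plau were called higher, beside 11.3% of all genes. Mmp13, Mmp16 and Adamts9 were called lower, a share near the 11% of all genes. Without both muscle-rich membranes 7 were called higher and 1 lower. Plau, the urokinase that activates plasminogen, measured 222, 234, 124 and 105 CPM in the membranes and 53.6, 93.2, 76 and 48 CPM in bone, with every membrane above bone (1.34 ± 0.29, adjusted p = 0.00633). Mmp13, the collagenase of bone cells and cartilage, stood at 390.3, 318, 1584 and 156 CPM against 3149.8, 2963, 4952 and 2416 CPM. Every membrane was below bone and that of rat 3 was the highest (-2.46 ± 0.68, adjusted p = 0.0201, and 0.0516 without the bone of rat 3). Without the membrane of rat 3 it was -3.55 ± 0.63. Gap43, a growth cone protein that Schwann cells of injured nerve also make, was at 12.4, 52.9, 16 and 13.2 CPM in the membranes and 1.49, 3.06, 1.82 and 2.76 CPM in bone. Rat 2 again had the highest membrane and the groups did not overlap (3.37 ± 0.53, adjusted p = 0.00104). Without that membrane it was 2.60 ± 0.41, while the Schwann cell list as a whole gave 2 calls higher and 2 lower of 14.

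Skeletal muscle genes separated by fibre type. Of 22 tested, 14 were called higher in the membrane, all genes of fast fibres or shared by fibre types, and 6 lower, all genes of slow fibres (Myh7, Myl2, Myl3, Tnnt1, Tnnc1 and Tnni1). Myh4, the myosin heavy chain of the fastest fibres, measured 2824, 7520.0, 41591 and 46425 CPM in the membranes and 18.3, 62.8, 109 and 45.7 CPM in bone. All membranes were above all bone libraries, most in rats 3 and 4, and the difference was 8.70 ± 1.14 (adjusted p = 0.000333). Tnnt3, the fast troponin T, stood at 2194, 4695, 19130.5 and 26031 CPM against 62.2, 280.4, 256 and 227 CPM (5.98 ± 0.96, adjusted p = 0.00118; 5.37 ± 0.91 without the membrane of rat 4). Myh7, the slow myosin heavy chain, went the other way, with 8.16, 9.14, 3.31 and 6.4 CPM in the membranes and 329, 1935, 321 and 859 CPM in bone. No membrane came near the lowest bone library (-6.99 ± 1.07, adjusted p = 0.00091; -6.22 ± 1.00 without the bone of rat 2, the highest). Tnnt1, the slow troponin T, was at 9.04, 17.4, 2.6 and 5.37 CPM against 116, 668, 183 and 493 CPM (-5.41 ± 1.01, adjusted p = 0.00288; -6.01 ± 1.16 without the membrane of rat 2). Its lowest membrane, that of rat 3, was among the libraries richest in fast-fibre RNA. Myosin heavy chain genes are near-identical in places, so reads of Myh4, Myh1, Myh2 and Myh7 may have been split between them.

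The counts were 12 higher and 3 lower without both muscle-rich membranes, and 9 and 3 when the bone of rat 1 was also left out. Myh2, of intermediate fibres, was at 253, 112, 29.7 and 141 CPM against 31.3, 138, 99.8 and 157 CPM and was not called (0.33 ± 0.80, adjusted p = 0.794). Its difference was -0.16 ± 0.86 without the membrane of rat 1. The upstream 250 bases of a fast-fibre gene called higher and a slow-fibre gene called lower are given below from RefSeq's GRCr8 table, Myh4 at chr10:52421898-52422147 and Tnnt1 at chr1:78348785-78349034, both on the plus strand. Capitals mark CAGCTG, an E-box that muscle regulatory factors can bind, which reads the same on both strands and occurs 1 time in the Myh4 window and 0 times in that of Tnnt1.

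Myh4: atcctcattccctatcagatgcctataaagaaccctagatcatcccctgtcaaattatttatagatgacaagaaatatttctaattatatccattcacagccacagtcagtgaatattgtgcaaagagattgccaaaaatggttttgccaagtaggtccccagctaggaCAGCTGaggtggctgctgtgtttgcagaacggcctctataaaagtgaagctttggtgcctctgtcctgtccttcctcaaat

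Tnnt1: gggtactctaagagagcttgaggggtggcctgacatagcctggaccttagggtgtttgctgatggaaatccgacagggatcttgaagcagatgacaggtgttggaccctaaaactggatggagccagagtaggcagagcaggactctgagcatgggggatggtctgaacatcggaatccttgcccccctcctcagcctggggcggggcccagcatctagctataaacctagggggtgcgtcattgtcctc

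CAGCTG stood upstream of 6 of 18 skeletal muscle genes with an entry (33.3%), against 12.9% of all genes. The matches were in Acta1, Atp2a1, Casq1, Ckm and Myh4, called higher, and in Myh7, called lower, while other fast-fibre genes such as Actn3, Myoz1, Pvalb and Tnni2 had none, so a match did not go with one direction. Genes of glycolysis were higher alongside the muscle share: Aldoa measured 2502, 3648, 11614 and 23549 CPM in the membranes and 468, 904, 819 and 663 CPM in bone (3.86 ± 0.73, adjusted p = 0.00311). The membranes of rats 3 and 4 were the highest, as for the muscle share. Of 16 hypoxia and glycolysis genes 4 were called higher, 2 without the muscle-rich membranes and 0 when the bone of rat 1 was left out too, and 7 without the membrane of rat 2. Car9, the only one of them called lower, differed by -2.06 ± 0.48 (adjusted p = 0.00864), and 2 were called lower without the membrane of rat 1. Both genes of the muscle regeneration list that were called higher, Myod1 and Myf6, lost the call without the membrane of rat 3 or 4 or the bone of rat 1, 3 or 4, and Myod1 also with the rat as a block (adjusted p = 0.0507).

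**Figure D4:**
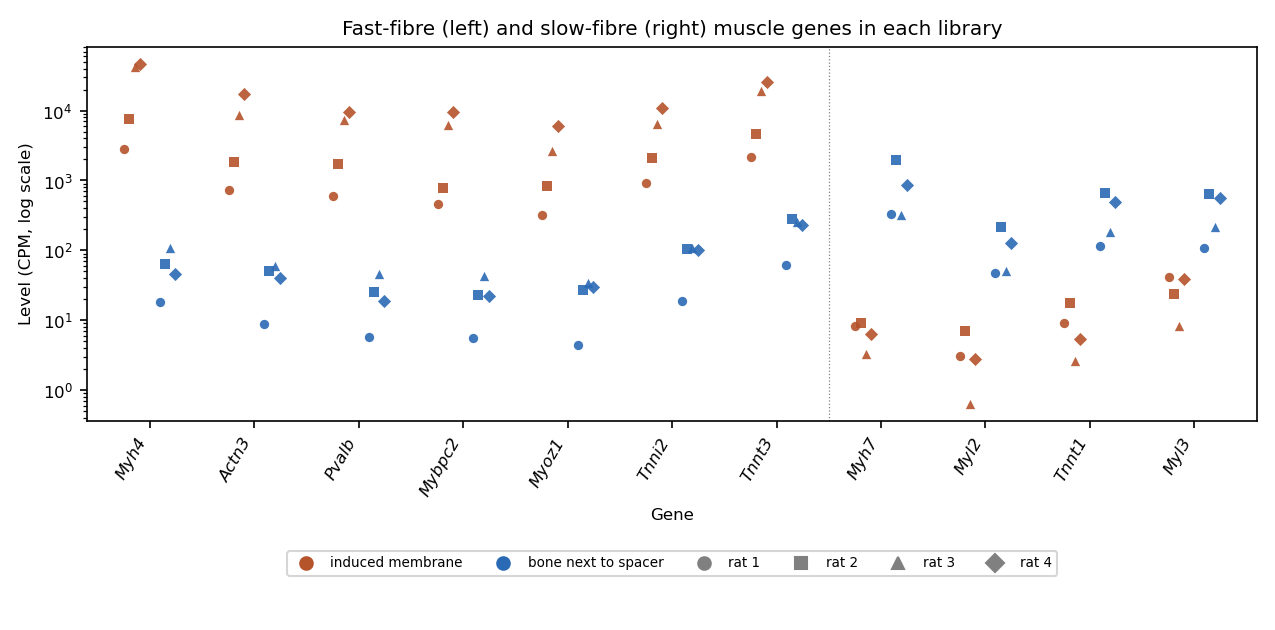
Level of 7 fast-fibre genes (left of the dotted line) and 4 slow-fibre genes (right) in CPM on a log axis, 1 symbol per library, brown for membranes and blue for bone, with 1 shape per rat. Membranes are above bone for every fast gene and below bone for every slow gene shown. CPM are not corrected for gene length.

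The list counts above moved in part when the libraries rich in muscle or marrow RNA were left out. Without both muscle-rich membranes, 6 osteocyte genes and 6 BMP and TGF-beta ligands were called lower, as were 3 Wnt antagonists, while 1 protease gene and no cytokine gene was. On the higher side, 1 Wnt antagonist, 2 cytokines and 2 osteoclast regulators were called there. When the bone of rat 1 was left out as well, 4 elastic fibre, 4 smooth muscle, 3 endothelial, 3 growth factor and 2 fascia genes remained called higher, and 4 osteocyte genes lower. Of 169 named genes, 23 lost the call without both muscle-rich membranes. Adamts9, Car9, Il1b, Lif, Loxl3, Mmp16, Myl3, Pgf and Sfrp2 were among them (adjusted p = 0.0597 to 0.124). So were Rsad2, Cd3g, Tbx15, Myf6, Slc2a4 and Myod1 (adjusted p = 0.057 to 0.782). When the bone of rat 1 was left out too, 33 named genes lost the call. They included Prg4, Igfbp6, Fgf10, Fbln1, Aldoa and Atp2a1 (adjusted p = 0.055 to 0.0784), and Nov and Dcn (adjusted p = 0.083 and 0.0882). The part of muscle and marrow content in these results was not tested.

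The same contrast was set beside that of the empty defect, tissue of the defect minus the bone next to it, which shares rats but no library with it. There 1928 genes were higher in the tissue (15%) and 1956 lower (15.2%). Of the genes called in the spacer limb, 1891 (66.1%, or 48.7% of those called in the empty limb) were called in the same direction in the empty limb and 3 in the opposite one. A test of the difference between the 2 contrasts called 0 of 12857 genes with edgeR (0%), with 1149 at an unadjusted p under 0.05, while DESeq2 called 131 and limma-voom 218, and edgeR called 199 without the bone of rat 1. Marrow lists were lower in both limbs (12 of 14 erythroid, 14 of 14 B cell and 10 of 10 mast cell genes called in each). In the empty limb 16 of 19 endothelial and 11 of 14 smooth muscle genes were called higher, and all 21 proliferation genes lower, beside 6, 7 and 19 in the spacer limb. The difference between limbs was called by edgeR over all 16 libraries for none of these members, whereas DESeq2 called it for Mcpt2, Rag1 and Igll1 among those named (adjusted p = 0.00112, 0.025 and 0.0395) and edgeR without the bone of rat 1 for Mcpt2 (adjusted p = 0.0438).

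**Figure D5:**
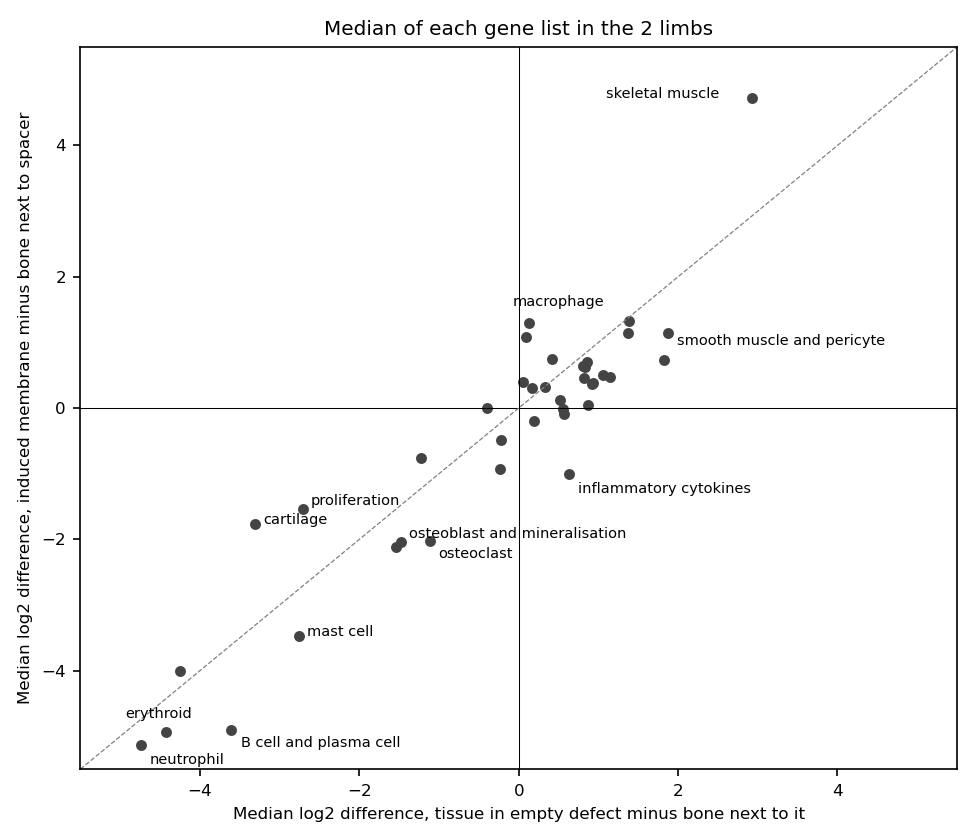
Median log2 difference of each of the 39 gene lists in the spacer limb (membrane minus bone next to the spacer, vertical) against the empty limb (tissue of the empty defect minus the bone next to it, horizontal), 1 point per list, with a dashed line where both are equal. Marrow lists lie at the lower left and the skeletal muscle list at the upper right (4.72 and 2.93), and inflammatory cytokines at -1.0 and 0.64.

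Slow-fibre genes were among the genes called between the limbs once the bone of rat 1 was left out. Myh7 was at 528, 734, 679.8 and 3031 CPM in the tissue of the empty defects of rats 1 to 4 and 819.9, 2374, 511 and 75.4 CPM in the bone next to them. These overlapped, unlike membrane and bone, and the difference in the empty limb was 0.40 ± 0.83 (adjusted p = 0.742). The difference between contrasts was -7.39 ± 1.30 (adjusted p = 0.127), and -7.66 without the bone of rat 1 (adjusted p = 0.0299). DESeq2 called it for Myh7 and Tnnt1 (adjusted p = 1.88e-07 and 0.000491). Tnnt1 gave -5.71 ± 1.26 (adjusted p = 0.224) and, without that library, -6.01 (adjusted p = 0.0432).

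Gas7, a growth arrest-specific gene, was chosen after its values were seen. It stood at 323, 406, 342 and 255 CPM in the membranes and 85.8, 77, 56.7 and 77.6 CPM in the bone next to the spacer (2.16 ± 0.23, adjusted p = 5.36e-05), and at 231, 129.8, 149.7 and 116 CPM and 165, 143, 130.4 and 131 CPM in tissue and bone of the empty limb. Membranes were above the libraries of every other group, and the tissue and bone of the empty limb overlapped. The difference between contrasts was 2.02 ± 0.31 (adjusted p = 0.0674; 0.0222 without the bone of rat 1). Alox5, the lipoxygenase that starts leukotriene synthesis, also chosen after its values were seen, was at 37.3, 41.1, 29.5 and 26 CPM in the membranes and 22.2, 18.6, 18.7 and 20.4 CPM in bone, but at 24.1, 13.9, 13.8 and 15 CPM in the empty-defect tissue and 39.2, 47.5, 40.4 and 27.4 CPM in its bone. It was higher in the soft tissue on the spacer side (0.75 ± 0.21, adjusted p = 0.0235) and lower on the empty side (-1.21 ± 0.22, adjusted p = 0.00107). The first call was lost without the membrane of rat 2 or the bone of rat 2, 3 or 4 (adjusted p = 0.0518 to 0.0612). The difference between contrasts was 1.96 ± 0.31 (adjusted p = 0.0674; 0.0257 without the bone of rat 1). DESeq2 called the difference between contrasts for Gas7 and Alox5 (adjusted p = 3.27e-06 and 2.81e-05). C1qc, higher in the membrane, was at 256, 125, 144 and 91.9 CPM in empty-defect tissue and 175, 154, 142 and 120.0 CPM in its bone, with overlap, and the difference between contrasts was not called (adjusted p = 0.262).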

How the data were processed

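Poly-A RNA from 16 tissue pieces of 4 rats was sequenced as stranded, paired-end TruSeq libraries with 12 cycles of PCR, per the labels' protocols. Per the submitters' processing notes, build rn5 and the tools TopHat2 2.0.13, Bowtie2 2.2.1, FastQC 0.11.3 and DESeq2 were used. The program that counted reads, its annotation and its use of strand are not stated there. The authors deposited raw counts, whole numbers for 14476 gene symbols. Overlapping or antisense genes and near-identical family members may share reads, and no rn5 coordinates are printed. Totals ran from 40472228 to 76815879 in the 8 libraries. Without molecular identifiers, depth speaks for counting error alone.

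Counts were fitted with the quasi-likelihood F-test of edgeR 4.0.16 (under R 4.3.3, with limma 3.58.1), TMM factors and filterByExpr, as 4 group means over all 16 libraries, and 12857 genes were tested. P-values were adjusted by Benjamini-Hochberg over all genes tested within a contrast, and adjusted p-values are those of edgeR except where DESeq2 or limma-voom is named. The standard error is the size of the log2 difference divided by the square root of F. A second contrast was the spacer-limb difference minus the empty-limb difference. On simulated counts (12713 genes, membrane against bone) the fit recovered 23% of 2-fold and 80% of 4-fold changes with 4 false calls. Each simulated gene was drawn on its own from the fitted spread, with no shift shared by the genes of a library. The simulation therefore cannot show how many false calls libraries rich in muscle or marrow RNA would bring.

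Membrane and bone of a rat share the animal, per the labels, so the rat as a block was fitted as an alternative. Deviations from the group means of same-rat libraries correlated at 0.067, -0.15, 0.12 and 0.27 for rats 1 to 4. Replicates differed by more than sampling noise (lowest chi-square per degree of freedom 118.8), so none was merged.

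The libraries compared, the 39 gene lists and the tests were chosen with earlier results of these data known. Genes named are the 12 largest called changes in each direction among those without overlap that averaged 5 CPM or more over the 8 libraries, up to 3 called members per list and direction by smallest p, and 21 panel genes. Further called members are named to spell out a list's count, and any gene outside these rules is marked as picked with its values known. A few genes that these rules name are not reported here. Alternatives were DESeq2 1.42.0, its size factors, limma-voom, no filter, only the 8 libraries, the rat block, muscle and erythroid genes left out of library totals, each library left out, and 2 refits without the libraries rich in muscle or marrow RNA, which were added after seeing the data. Promoter windows come from RefSeq's GRCr8 table, which held 372 of the 532 list genes tested, and the 250 bases upstream of the start were searched on both strands.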

Additional observations from a re-analysis of the deposited data

Results flagged for a closer look

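The spread within each group of 4 libraries was examined for 51 genes described above and 8 list shares, 118 groups in all, by asking whether the highest or lowest library lay apart from the other 3 by more than Dixon's criterion allows. In all, 12 groups were picked out. The criterion picks out about 1 in 20 groups of independent values from a normal distribution. CPM need not follow that distribution, the genes were chosen with their values known, and genes of 1 library can move together. The count of 12 therefore cannot be compared with that rate.

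The membrane of rat 3 accounted for 7 of them. It measured 217 CPM for Alpl, against 30.1 to 56.3 CPM in the other membranes. For Dmp1 the value was 1059 CPM against 13.4 to 155 CPM. It measured 9.71 CPM for Sost, against 0.134 to 0.452 CPM in the other membranes. For Acp5 the value was 1009 CPM against 113 to 225 CPM. For Mmp9 the value was 513 CPM against 54.1 to 118 CPM. For Mmp13 the value was 1584 CPM against 156 to 390.3 CPM. In contrast it was the lowest membrane for Acta2 (368 CPM, others 654 to 699). These are genes of osteoblasts, osteocytes and osteoclasts on the high side and a gene of contractile cells on the low side.

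The bone of rat 1 was the highest bone library for Slc4a1 (2254 CPM, others 107 to 328) and for the erythroid share of counts (8.31%, others 0.465 to 1.41%), and the lowest for Cdh5 (65.2 CPM, others 105 to 113). The membrane of rat 2 was the highest for Mfap5 (576 CPM, others 185 to 219.6) and Gap43 (52.9 CPM, others 12.4 to 16).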

How the results depend on the processing

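The 2860 genes called (1447 higher and 1413 lower in the membrane) became 908 (410 and 498) when only the 8 membrane and bone libraries were fitted, with 143 of the list genes called in place of 227, and 885 (338 and 547) with the replicate block for rat in those 8 libraries, the latter with 38.2% of calls higher in place of 50.6%. Fewer libraries estimate the spread in those fits, and whether this lowered the counts was not tested. Without the block, those 8 libraries gave 4 proliferation, 3 osteoblast and 6 osteoclast genes called lower, in place of 19, 8 and 10. There, 0 osteocyte genes were called lower, and 2 endothelial and 3 smooth muscle genes higher, in place of 6 and 7. The block in those 8 gave 12 proliferation and 5 erythroid genes called lower, in place of 19 and 12. All 10 mast cell genes stayed called in both fits. With the block in all 16 libraries the counts were 2774 (1287 and 1487), of which 2549 were shared with the unblocked fit. Of 169 named genes that block ended 8 calls and added 5, those given in the text and those of Mepe and Phex (adjusted p = 0.0165 and 0.0228), and it changed no other call among them. Leaving out 1 library gave 1818 to 4047 calls, 800 to 2089 higher and 960 to 1958 lower, with the lowest total without the membrane of rat 4 and the highest without that of rat 1. The share higher was 42.0% without the bone of rat 3 and 42.4% without that of rat 4. Without both muscle-rich membranes 1760 were called (869 and 891), and 1451 (694 and 757) without the bone of rat 1 as well. The contrast between limbs went from 0 calls to 131 with DESeq2, 218 with limma-voom, 0 to 199 when 1 library was left out, 124 without the muscle-rich membranes and 1050 without these and the bone of rat 1. Direction turned for Postn (-0.081) and Myh2 (-0.95) with limma-voom and for Myh2 without the membrane of rat 1 (leaving out 1 library gave -0.16 to 0.66), all uncalled. The causes of the shifts in this section were not tested. Of the named genes 152 were called, 121 of them whichever library was left out and 72 under every alternative.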

Other observations

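A few single genes outside the lists above also separated membrane from bone. C4b, H19, Aldh1a2, Prg2 and Fgfr3 were chosen after their values were seen. C4b, a complement component, stood at 75.6, 112, 404 and 296 CPM in the membranes of rats 1 to 4 and 7.19, 16.7, 7.73 and 9.81 CPM in their bone (4.42 ± 0.69, adjusted p = 0.000978). Its membranes were all above bone, most in rats 3 and 4, in which the muscle share was also highest. H19, an imprinted long non-coding RNA of fetal and regenerating tissue, was at 2713, 2758, 14442 and 32567 CPM against 311, 1719, 853 and 1319.9 CPM (3.64 ± 0.91, adjusted p = 0.0126), and without the muscle-rich membranes it was not called (adjusted p = 0.232). Aldh1a2, an enzyme that makes retinoic acid, was at 5.53, 23.6, 37.5 and 68.4 CPM in the membranes and 0.631, 3.06, 0.994 and 2.19 CPM in bone (4.29 ± 0.82, adjusted p = 0.00346). Again the membranes of rats 3 and 4 were highest, no membrane fell into the bone range, and the call was lost without both muscle-rich membranes and the bone of rat 1 (adjusted p = 0.0531).

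Prg2, the eosinophil granule major basic protein, measured 0.115, 0.469, 0.231 and 0.415 CPM in the membranes and 65, 10.05, 16.5 and 31.1 CPM in bone (-6.62 ± 0.95, adjusted p = 0.000604). Like Epx it was highest in the bone of rat 1. Fgfr3, a receptor of growth plate and bone cells, stood at 6.99, 2.51, 29.6 and 9.83 CPM against 60.6, 80.7, 112 and 118 CPM (-2.92 ± 0.57, adjusted p = 0.00367), with the membrane of rat 3 the highest of its group. Of 12 interferon-induced genes tested, Rsad2 and Ifit1 were called lower in the membrane and none higher, beside 11% and 11.3% of all genes. Yet 9 of the 12 differences were positive, and the median was 0.70. With limma-voom, or without the membrane of rat 1, 2 were called higher. Ifit1 was at 0.806, 0.753, 0.597 and 0.494 CPM in the membranes and 12.5, 2.02, 3.75 and 2.63 CPM in bone (-2.97 ± 0.54, adjusted p = 0.00243), while the Rsad2 call was lost without the bone of rat 1 (adjusted p = 0.0619) and with the rat as a block (adjusted p = 0.0554).

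The remaining lists gave few calls. Tgfbi, Wisp2 and Nov, secreted matricellular proteins, were called higher of 12 tested, by 1.24 ± 0.38, 1.52 ± 0.39 and 1.88 ± 0.53 (adjusted p = 0.0307, 0.0133 and 0.021), with 1 call left without the membrane of rat 2 or the bone of rat 1, 3 or 4, and the Tgfbi call lost with the rat as a block (adjusted p = 0.06). Of 19 limb and mesenchyme transcription factors, Hoxd9 and Tbx15 were called higher and Hoxc8 and Twist1 lower, and none of these higher or lower calls was left without both muscle-rich membranes. Fabp4 and Slc2a4 were called higher of 13 adipocyte genes, with 1 left without the membrane of rat 4, the bone of rat 3 or 4, or both muscle-rich membranes. Dcn was called higher of 8 small proteoglycan genes (0.79 ± 0.27, adjusted p = 0.0492) and Atf3 of 17 immediate early genes (0.87 ± 0.30, adjusted p = 0.0472), and neither list had a call with the rat as a block. Without the membrane of rat 3 or the bone of rat 3 or 4 neither list had a call either. The immediate early list had 3 called higher without the membrane of rat 2 or with limma-voom, and 0 higher and 2 lower without the membrane of rat 1, and the small proteoglycan list had 0 without the membrane of rat 2 or the bone of rat 1 or 2.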
